A study of Mus musculus with 28 samples.

Results

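The genes described here are S100g, Calb1, Trpv5, Slc12a3, Pvalb, Slc12a1 and Umod, 7 transcripts of the distal tubule and the thick ascending limb of the kidney, measured in sorted renal dendritic cells of the mouse. They were chosen by name, with earlier results of these data known. Each is measured by 1 probeset (the set of probes for 1 gene) that maps to its symbol alone. They are 7 of 19272 genes with such a probeset, and all 7 are among the 14346 genes that passed a filter on dim signal (a signal over the 40th percentile of all probesets on 3 or more arrays). Calb1 lay above that percentile in 1 of 14 medulla arrays and 12 of 14 cortex arrays, and Pvalb in 1 of 14 medulla arrays and 13 of 14 cortex arrays. These genes therefore passed the filter through their cortex arrays, where they are high, and a count over the members is not support for a difference.

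The study isolated dendritic cells, antigen-presenting cells of the immune system, from the outer zone of the kidney, the cortex, and from its inner zone, the medulla, and compared regions, strains and transplantation. Donor cells came from kidney allografts 3 days after transplantation, were recognised by CD45.2 and bear the label BALB/c, with 3 arrays each for medulla and cortex. Host cells, recognised by CD45.1 and labelled C57BL/6, were sorted from the same 3 grafts, again with 3 arrays per region. Homeostatic cells came from healthy BALB/c and healthy C57BL/6 kidneys, with 4 arrays per region in each strain. All kidneys were digested with collagenase and DNase, all cells were sorted for CD45, CD11c and MHCII, and all RNA was amplified before labelling. The ages of the mice are not given in the labels.

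The thick ascending limb, which lies mainly in the outer medulla and reaches into the cortex, reabsorbs sodium chloride through the cotransporter encoded by Slc12a1, the target of furosemide, and secretes uromodulin, the product of Umod. The distal convoluted tubule follows it in the cortex and takes up sodium chloride through the thiazide-sensitive cotransporter encoded by Slc12a3. The end of the distal convoluted tubule and the connecting tubule reabsorb calcium: the channel encoded by Trpv5 admits it, and calbindins encoded by Calb1 and S100g carry it through the cell. Pvalb encodes parvalbumin, a calcium buffer of the early distal convoluted tubule. Dendritic cells are not known for any of these functions.

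The stretch of 250 bases before the transcription start is shown for S100g and Slc12a3, which were highest in cortex, and for Slc12a1 and Umod, which were highest in graft medulla, so that both kinds of regional pattern are represented. RefSeq entries were found for 6 of the 7 members, and the start is that of the promoter entry. For Slc12a3 and Slc12a1 the listed gene start lies inside the window, at chr8:94329109 and chr2:125152510. Their windows therefore reach into the annotated gene. Sequences are from RefSeq on build GRCm38.p6, written 5′ to 3′ on the strand of the gene, and capitals mark a motif. The motifs searched, on both strands, were TATAAA, the core promoter box, then GTTAAT, a short form of the site of the tubule factor HNF1, and lastly AGGTCA, which nuclear receptors bind. No searched motif overlaps another in these stretches.
S100g, chrX:162964600-162964849, minus strand: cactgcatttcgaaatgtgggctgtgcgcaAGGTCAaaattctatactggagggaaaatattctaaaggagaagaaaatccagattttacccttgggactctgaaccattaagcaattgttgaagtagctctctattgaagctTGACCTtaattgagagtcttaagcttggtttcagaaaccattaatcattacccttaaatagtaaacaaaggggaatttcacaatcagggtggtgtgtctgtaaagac
Slc12a3, chr8:94328958-94329207, plus strand: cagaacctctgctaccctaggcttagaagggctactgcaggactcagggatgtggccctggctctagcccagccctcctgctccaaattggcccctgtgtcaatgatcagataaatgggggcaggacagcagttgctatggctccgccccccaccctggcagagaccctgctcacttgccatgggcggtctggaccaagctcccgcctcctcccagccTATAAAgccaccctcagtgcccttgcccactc
Slc12a1, chr2:125152350-125152599, plus strand: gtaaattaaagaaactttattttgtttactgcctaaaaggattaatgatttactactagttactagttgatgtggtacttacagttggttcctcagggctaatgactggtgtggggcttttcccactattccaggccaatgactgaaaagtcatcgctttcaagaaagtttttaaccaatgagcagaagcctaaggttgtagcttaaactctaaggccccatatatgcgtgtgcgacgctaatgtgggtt
Umod, chr7:119479263-119479512, minus strand: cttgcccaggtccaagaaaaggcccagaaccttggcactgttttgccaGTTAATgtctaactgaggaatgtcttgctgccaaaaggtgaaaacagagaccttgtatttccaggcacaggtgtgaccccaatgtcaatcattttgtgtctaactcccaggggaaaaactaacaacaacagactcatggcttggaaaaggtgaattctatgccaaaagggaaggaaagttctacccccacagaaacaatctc
S100g held 2 AGGTCA matches, 220 bases before the start on the gene's strand and 107 bases before it on the other strand. Slc12a3 held TATAAA 32 bases before the start of its promoter entry, which is downstream of the listed gene start. Umod held GTTAAT 202 bases before its start. The stretch of Slc12a1 held no match, which says only that these letters are not in this window. Of 32851 mouse promoter stretches of the same length, 12.4% held TATAAA, 6.43% held GTTAAT and 14% held AGGTCA on either strand. The matches are descriptions and not sites shown to be bound.

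Levels below are log2 array signal, given for the arrays of a group in replicate order, and differences are log2 differences with their standard error (SE) from limma. The SE of a gene comes from a spread shared by all 8 groups, and not from the groups compared alone. A difference passed when its p, adjusted over the 14346 genes, was under 0.05. Markers of the sort were present in most groups. Ptprc, which encodes CD45, averaged 9.67 ± 1.09 in host medulla and 11.71 ± 1.20 in host cortex, and between 11.23 and 12.79 in the other 6 groups (SD, n = 3 or 4). Itgax, which encodes CD11c, averaged 7.38 ± 0.19 in donor medulla and 7.66 ± 0.45 in host medulla, against 8.43 ± 0.97 in homeostatic BALB/c medulla and 11.09 ± 0.21 in homeostatic C57BL/6 medulla. In cortex Itgax averaged 10.02 ± 0.78 in donor and 9.155 ± 1.46 in host cells. It averaged 10.47 ± 0.93 in homeostatic BALB/c cortex and 11.32 ± 0.31 in homeostatic C57BL/6 cortex. The 40th percentile of the arrays ranged from 7.26 to 7.62, so this defining gene of the labelled cell type averaged near that percentile in graft medulla. The BALB/c medulla arrays spread widely, the lowest of them below every array's 40th percentile and the highest at 9.53. H2-Ab1, which encodes a chain of MHCII, averaged 10.77 ± 0.93 in donor medulla and 9.54 ± 1.19 in host medulla. Its lowest graft medulla array, at 8.84, lay above every array's 40th percentile. It averaged 11.14 ± 0.10 in donor cortex, 11.75 ± 0.72 in host cortex and between 11.87 and 13.24 in the homeostatic groups. Epithelial transcripts were measured in every group: the mean of 12 epithelium-wide genes was 10.55 ± 0.12 in host medulla and 10.03 ± 0.15 in donor medulla, against 7.95 ± 0.20 in homeostatic C57BL/6 medulla and 8.59 ± 0.30 in homeostatic BALB/c medulla. In such bulk samples fewer cells of a type and less RNA per cell cannot be told apart. Homeostatic BALB/c medulla replicate 1 stood apart from its group over all genes, with a mean correlation of 0.788 with the other arrays of the group, whereas the other 27 arrays had 0.848 to 0.950 with their own. For Slc12a1 and Umod, several differences that use this array are given with and without it. In the main fit no member passed in a comparison that uses it, nor in the same fit without it.

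**Figure D1:**
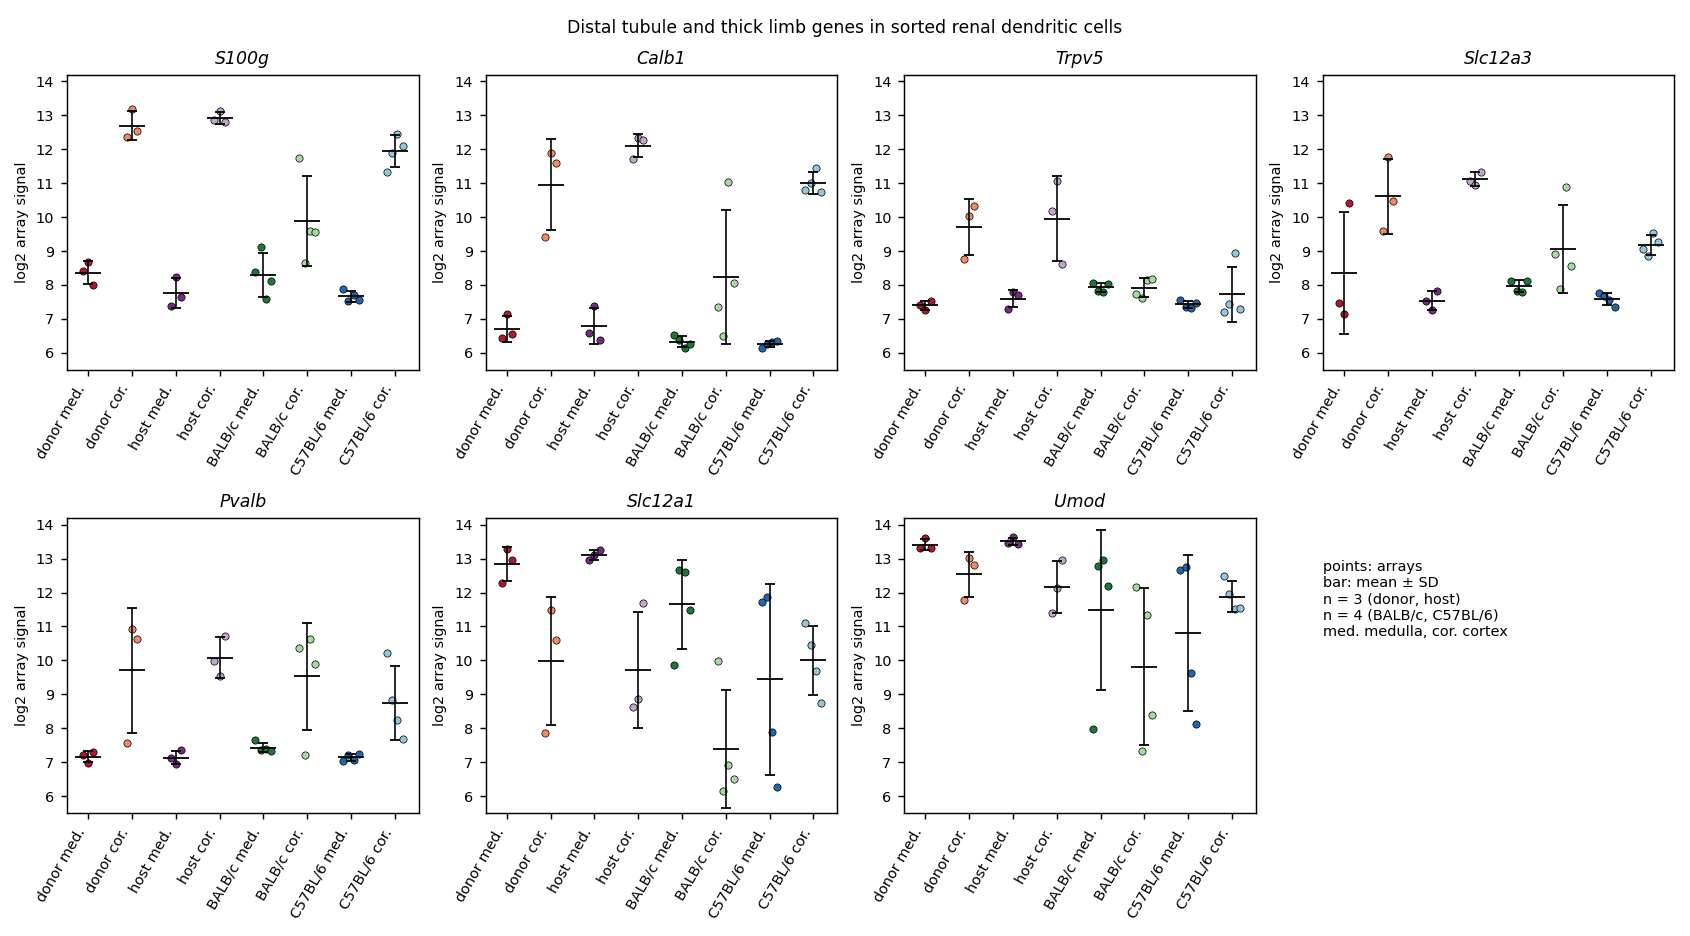
Level of each of the 7 genes in every array (points, log2 array signal), with the mean and SD of each group (bars; n = 3 for donor and host, n = 4 for homeostatic groups). S100g is high in the cortex of donor, host and homeostatic C57BL/6 cells, between 11.33 and 13.17, and at most 8.67 in their medulla, whereas Slc12a1 and Umod are highest in graft medulla.

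The 2 calbindin genes had the widest regional differences of the 7 in donor, host and homeostatic C57BL/6 cells. S100g measured 8.43, 8.67 and 8.00 in donor medulla, against 12.37, 13.17 and 12.52 in donor cortex. It measured 7.39, 8.24 and 7.64 in host medulla, against 12.87, 13.13 and 12.79 in host cortex. In homeostatic C57BL/6 kidneys it measured 7.90, 7.53, 7.69 and 7.56 in medulla, against 11.33, 11.89, 12.45 and 12.09 in cortex. Medulla and cortex arrays did not overlap in any of these 3 kinds of cells. S100g lay above the 40th percentile in all 14 medulla arrays, but some host and C57BL/6 medulla values were close to it. Host medulla replicate 1 was at 7.392, with a 40th percentile of 7.391 on that array. The host and C57BL/6 folds therefore rest partly on values near that percentile. S100g was 20.0-fold lower in medulla in donor cells, a difference of -4.32 ± 0.50, with an adjusted p of 1.14e-05. The difference was -5.17 ± 0.50 in host cells, 36.0-fold lower, with an adjusted p of 7.25e-07. Homeostatic C57BL/6 cells had a difference of -4.27 ± 0.43, 19.3-fold lower, with an adjusted p of 1.95e-05, which became 0.0815 with the mouse as a fixed block. Homeostatic BALB/c cells were the exception: S100g measured 8.38, 9.11, 7.58 and 8.11 in medulla, against 11.75, 8.66, 9.59 and 9.56 in cortex. The BALB/c groups overlapped, with cortex replicate 2 below medulla replicate 2, and the difference of -1.60 ± 0.43 did not pass (adjusted p = 0.2205).

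Calb1 had the same arrangement. It measured 6.43, 7.13 and 6.57 in donor medulla, against 9.41, 11.88 and 11.59 in donor cortex. Host cells had 6.60, 7.38 and 6.38 in medulla, against 11.71, 12.34 and 12.27 in cortex. Homeostatic C57BL/6 cells had 6.14, 6.25, 6.32 and 6.34 in medulla, against 10.80, 10.99, 11.45 and 10.75 in cortex. All medulla arrays of these kinds lay below all of their cortex arrays, and donor cortex replicate 1 was the lowest of the cortex arrays. The medulla signal of Calb1 was dim, above the 40th percentile in 0 of 3 donor, 1 of 3 host and 0 of 4 C57BL/6 arrays, so that the fold in medulla is given as a bound, with each medulla array taken at that percentile where its own signal was lower. The percentile stands in for background, since no detection call was used here. On this basis Calb1 was at least 11.5-fold lower in donor medulla, at least 25.5-fold lower in host medulla and at least 12.4-fold lower in homeostatic C57BL/6 medulla than in the cortex of the same kind. The measured difference was -5.32 ± 0.71 in host cells (adjusted p = 5.05e-05, and 6.82e-05 with no filter on dim genes) and -4.74 ± 0.62 in C57BL/6 cells (adjusted p = 0.000360, and 0.000532 with no filter). In donor cells it was -4.25 ± 0.71, with an adjusted p of 0.000767 that became 0.00108 with no filter and 0.0995 with the mouse as a fixed block. Homeostatic BALB/c cells had 6.53, 6.38, 6.15 and 6.27 in medulla, against 7.36, 6.51, 11.03 and 8.06 in cortex. Only cortex replicate 3 of that strain reached the level seen in the other cortices, and the difference of -1.91 ± 0.62 did not pass (adjusted p = 0.404).

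Trpv5, the apical calcium channel, had a regional difference in graft cells. It measured 7.40, 7.27 and 7.54 in donor medulla, against 8.76, 10.03 and 10.31 in donor cortex. Host cells had 7.31, 7.79 and 7.70 in medulla, against 10.17, 11.08 and 8.61 in cortex. The regions did not overlap in either, and Trpv5 fell in medulla relative to cortex in both. The difference was -2.30 ± 0.46 in donor cells, 4.92-fold lower, with an adjusted p of 0.00528. In host cells it was -2.35 ± 0.46, 5.11-fold lower, with an adjusted p of 0.00273. Trpv5 lay above the 40th percentile in 1 of 3 donor and 2 of 3 host medulla arrays, so these folds rest partly on dim values. With the mouse as a fixed block the adjusted p became 0.168 in donor cells and 0.282 in host cells. In a fit of each kind of graft cells alone it was 0.0666 in donor and 0.225 in host cells. In homeostatic kidneys the regions overlapped in both strains: BALB/c cells had 8.07, 7.83, 7.79 and 8.03 in medulla, against 7.74, 7.61, 8.15 and 8.19 in cortex, and C57BL/6 cells had 7.56, 7.35, 7.33 and 7.46 in medulla, against 7.22, 7.45, 8.94 and 7.30 in cortex. Neither homeostatic difference passed (0.01 ± 0.40 in BALB/c cells, and -0.30 ± 0.40 in C57BL/6 cells, with adjusted p of at least 0.9996).

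Slc12a3, the sodium chloride cotransporter of the distal convoluted tubule, measured 7.52, 7.26 and 7.82 in host medulla, against 11.06, 10.95 and 11.34 in host cortex. It was 12.0-fold lower in host medulla (-3.58 ± 0.66, adjusted p = 0.00154), with no overlap. Of the host medulla arrays, 2 of 3 were above the 40th percentile for Slc12a3. Donor cells had 7.46, 7.16 and 10.41 in medulla, against 9.58, 11.78 and 10.46 in cortex. Donor medulla replicate 3 lay within the cortex range, and the donor difference of -2.27 ± 0.66 did not pass (adjusted p = 0.0784). It passed with the mouse as a random block (adjusted p = 0.0465), without donor cortex replicate 1 (-2.78, adjusted p = 0.0495) and without donor medulla replicate 3 (-3.30, adjusted p = 0.00181). Homeostatic C57BL/6 cells had 7.77, 7.68, 7.55 and 7.34 in medulla, against 9.07, 8.85, 9.53 and 9.28 in cortex. These arrays did not overlap, and the difference of -1.60 ± 0.58 did not pass in the fit of all groups (adjusted p = 0.763), but did in a fit of these groups alone (adjusted p = 0.0393). Homeostatic BALB/c cells had 8.12, 7.84, 7.81 and 8.12 in medulla, against 8.92, 7.88, 10.88 and 8.56 in cortex, an overlap with a difference of -1.09 ± 0.58 that did not pass (adjusted p = 0.775).

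Pvalb measured 7.12, 6.95 and 7.35 in host medulla, against 9.99, 9.53 and 10.72 in host cortex. The host regions did not overlap. No host medulla array was above its 40th percentile, and with each taken at that percentile Pvalb was at least 6.32-fold lower in host medulla. The measured difference was -2.94 ± 0.75 (adjusted p = 0.0241, and 0.0311 with no filter on dim genes). This call was lost when host cortex replicate 1 or 3, or any 1 of the 3 host medulla arrays, was left out (adjusted p between 0.0534 and 0.0913, differences between -2.62 and -3.05), and with the mouse as a fixed block (adjusted p = 0.0549). Donor cells had 7.21, 6.98 and 7.31 in medulla, against 7.58, 10.92 and 10.62 in cortex. Donor cortex replicate 1 was close to the medulla arrays although the regions did not overlap, and the difference of -2.54 ± 0.75 did not pass (adjusted p = 0.0836). It passed with the mouse as a random block (adjusted p = 0.0490) and without donor cortex replicate 1 (-3.60, adjusted p = 0.00445). Homeostatic BALB/c cells had 7.64, 7.36, 7.40 and 7.33 in medulla, against 10.38, 7.21, 10.64 and 9.90 in cortex. Cortex replicate 2 alone lay below the medulla arrays of that strain, and the difference of -2.10 ± 0.65 did not pass (adjusted p = 0.372). Homeostatic C57BL/6 cells had 7.05, 7.21, 7.06 and 7.26 in medulla, against 10.21, 8.83, 8.24 and 7.67 in cortex, without overlap and with a difference of -1.60 ± 0.65 that did not pass (adjusted p = 0.996).

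The thick limb genes ran the other way in grafts, with values above those of cortex in medulla, although no difference passed. Slc12a1 measured 12.29, 13.29 and 12.95 in donor medulla, against 7.87, 11.49 and 10.61 in donor cortex. It measured 12.97, 13.11 and 13.26 in host medulla, against 8.62, 8.85 and 11.70 in host cortex. The regions did not overlap in either kind, and the cortex arrays were spread more widely than the medulla arrays. The differences of 2.86 ± 1.28 in donor cells (adjusted p = 0.323) and 3.39 ± 1.28 in host cells (adjusted p = 0.1845) rank 14 and 20 from the highest of 14346 genes, and neither passed. Homeostatic BALB/c cells had 9.87, 12.66, 12.59 and 11.48 in medulla, against 9.98, 6.16, 6.91 and 6.52 in cortex. The difference of 4.26 ± 1.11 was the second highest of all genes tested in that comparison and did not pass (adjusted p = 0.181). Replicate 1 had nearly one level in both regions. It was 4.85 without medulla replicate 1 (adjusted p = 0.126). Homeostatic C57BL/6 cells had 11.72, 11.88, 7.90 and 6.26 in medulla, against 11.11, 10.46, 9.69 and 8.75 in cortex. Medulla replicates 3 and 4 lay below every cortex array and replicates 1 and 2 above every one, and the mean difference was -0.56 ± 1.11 (adjusted p = 0.9998).

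Umod measured 13.32, 13.60 and 13.32 in donor medulla, against 11.79, 13.01 and 12.80 in donor cortex. Host cells had 13.47, 13.62 and 13.44 in medulla, against 11.40, 12.13 and 12.94 in cortex. Every graft medulla array lay above every graft cortex array, by a small margin, and the differences of 0.88 ± 1.24 in donor cells (adjusted p = 0.755) and 1.35 ± 1.24 in host cells (adjusted p = 0.701) did not pass. The shared spread behind this SE was widest in homeostatic arrays. The SD of Umod was 0.16 in donor medulla, 0.65 in donor cortex, 0.10 in host medulla and 0.77 in host cortex. It was 2.36 and 2.31 in BALB/c medulla and cortex, and 2.30 and 0.45 in C57BL/6 medulla and cortex. Homeostatic BALB/c cells had 7.97, 12.79, 12.97 and 12.20 in medulla, against 12.17, 7.34, 11.33 and 8.40 in cortex. Medulla replicate 1 was low and its cortex partner high, and the difference was 1.67 ± 1.07 with that array (adjusted p = 0.853) and 2.84 without it (adjusted p = 0.4301). Homeostatic C57BL/6 cells had 12.67, 12.76, 9.64 and 8.13 in medulla, against 12.48, 11.96, 11.52 and 11.54 in cortex, with the same low arrays in medulla as for Slc12a1 and a difference of -1.08 ± 1.07 (adjusted p = 0.9998).

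Of the 7 genes, 3 passed as lower in donor medulla, where 2.54% of all genes tested passed in either direction and 1.92% as lower. With the mouse as a random block 5 passed, and with the mouse as a fixed block S100g alone passed. In host cells 5 passed as lower in medulla, where 4.29% of all genes passed and 2.43% as lower, and 3 passed with the fixed block. In homeostatic C57BL/6 cells 2 passed, where 0.153% of all genes passed and 0.146% as lower, and with the fixed block Calb1 was the single gene that passed among the 14346. In homeostatic BALB/c cells none of the 7 passed in limma, where 0.0697% of all genes passed and 1000 genes had an unadjusted p under 0.05. None of the 7 passed as higher in medulla in any kind of cells.

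**Figure D2:**
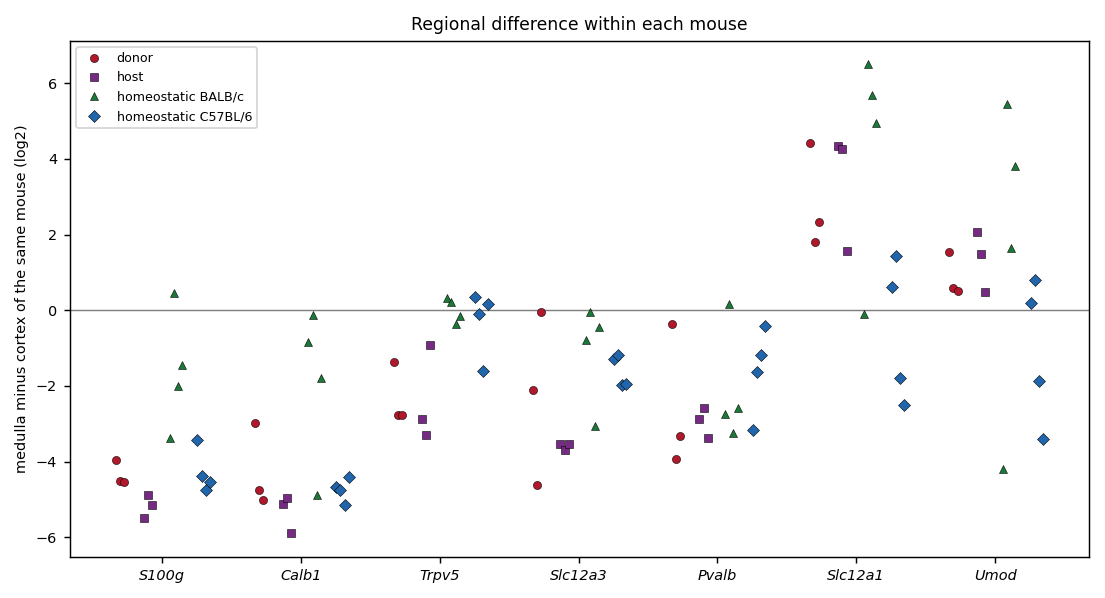
Medulla minus cortex difference (log2, vertical axis) for each gene within each mouse, 3 grafts for donor cells and for host cells and 4 mice for each homeostatic strain; the line marks 0. Calb1 and Slc12a3 lie below 0 in 14 of 14 pairs, and Slc12a1 and Umod lie above 0 in 11 of 14. Donor and host pairs come from the same 3 grafts, so the pairs are not independent.

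The labels give mouse numbers, so that each medulla array has a cortex array of the same mouse or graft, 14 pairs in all. These pairs come from 11 animals or grafts. Each graft gave a donor and a host pair, so the pairs are not independent and their counts are descriptions. Medulla was lower than cortex in 14 of 14 pairs for Calb1 and for Slc12a3, in 13 of 14 for S100g and for Pvalb, and in 10 of 14 for Trpv5. Some of these differences were small. In BALB/c mouse 10 the difference was -0.13 for Calb1 and -0.04 for Slc12a3. For Slc12a3 it was -0.05 in donor cells of graft 8. Slc12a1 and Umod were higher in medulla in 11 of 14 pairs each, and the 3 exceptions were the same for both genes, BALB/c mouse 9 and C57BL/6 mice 3 and 4. In mouse 9 the difference was -0.11 for Slc12a1 and -4.20 for Umod. It was -1.79 and -2.49 for Slc12a1 in mice 3 and 4, and -1.88 and -3.41 for Umod.

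Set against healthy BALB/c cortex, donor cells of graft cortex had more signal of S100g, Calb1 and Trpv5. S100g was 6.97-fold higher in donor cortex, with means of 12.69 ± 0.42 in donor and 9.89 ± 1.31 in BALB/c cortex (difference 2.80 ± 0.47, adjusted p = 0.000474). The lowest donor array, 12.37, lay above the highest BALB/c array, 11.75. Calb1 averaged 10.96 ± 1.35 in donor cortex and 8.24 ± 1.97 in BALB/c cortex, with overlapping arrays and a difference of 2.72 ± 0.67 (adjusted p = 0.00637). Trpv5 averaged 9.70 ± 0.83 in donor cortex and 7.92 ± 0.29 in BALB/c cortex, without overlap and with a difference of 1.78 ± 0.43 (adjusted p = 0.00626). These 3 of 7 genes passed, all higher, where 24.0% of all genes tested passed and 7.91% passed as higher. The Calb1 call was lost without donor cortex replicate 2 (2.26, adjusted p = 0.0541). In a fit of these groups alone only Trpv5 passed, and S100g and Calb1 had adjusted p of 0.0543 and 0.1398.

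The other members did not pass in that comparison. Slc12a3 averaged 10.61 ± 1.11 in donor cortex and 9.06 ± 1.29 in BALB/c cortex (1.55 ± 0.62, adjusted p = 0.0714), and passed without BALB/c cortex replicate 3 (2.16, adjusted p = 0.0151). Slc12a1 differed by 2.60 ± 1.20 (adjusted p = 0.1135) and Umod by 2.72 ± 1.16 (adjusted p = 0.08825). BALB/c cortex replicate 1 was high for both, and without it Slc12a1 differed by 3.46 (adjusted p = 0.04195) and Umod by 3.51 (adjusted p = 0.0363), so that 5 of 7 passed. Pvalb was at about the same mean, 9.71 ± 1.85 in donor cortex and 9.53 ± 1.58 in BALB/c cortex, with a difference of 0.17 ± 0.71 (adjusted p = 0.874).

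In medulla, none of the 7 passed between donor and homeostatic BALB/c cells in limma, where 3.18% of all genes passed and 3148 had an unadjusted p under 0.05. Umod had the widest difference, 1.92 ± 1.16 (adjusted p = 0.334). Donor medulla arrays lay between 13.32 and 13.60 and BALB/c medulla arrays between 7.97 and 12.97. Without BALB/c medulla replicate 1 the Umod difference was 0.75 (adjusted p = 0.7865). Slc12a1 differed by 1.20 ± 1.20 with that array (adjusted p = 0.575) and by 0.60 without it (adjusted p = 0.867). The other 5 members differed by between -0.53 and 0.38 (adjusted p of at least 0.488).

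Host cells of graft cortex, set against healthy C57BL/6 cortex, differed in Trpv5. It averaged 9.95 ± 1.25 in host cortex and 7.73 ± 0.81 in C57BL/6 cortex, 4.67-fold higher (2.22 ± 0.43, adjusted p = 0.00305). Trpv5 lay above the 40th percentile in 2 of 4 C57BL/6 cortex arrays, so this fold rests partly on dim values. The arrays overlapped, since host cortex replicate 3, at 8.61, lay below C57BL/6 cortex replicate 3, at 8.94. Trpv5 was the 1 member of 7 that passed, where 4.14% of all genes passed and 2.01% as higher, and it did not pass in a fit of these groups alone (adjusted p = 0.170). Slc12a3 averaged 11.12 ± 0.20 in host cortex and 9.19 ± 0.29 in C57BL/6 cortex without overlap, and its difference of 1.93 ± 0.62 did not pass (adjusted p = 0.0886). It passed in the fit of these groups alone (adjusted p = 0.00489) and when arrays were weighted by their quality (1.86, adjusted p = 0.0232). S100g (0.99 ± 0.47, adjusted p = 0.342) and Calb1 (1.11 ± 0.67, adjusted p = 0.524) were higher in every host array than in every C57BL/6 array but did not pass. Pvalb, Slc12a1 and Umod differed by 1.34 ± 0.71, -0.28 ± 1.20 and 0.28 ± 1.16, with overlapping arrays and adjusted p of at least 0.421.

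In medulla, host cells differed from healthy C57BL/6 cells in Slc12a1, which averaged 13.11 ± 0.15 in host and 9.44 ± 2.81 in C57BL/6 cells, 12.7-fold higher (3.67 ± 1.20, adjusted p = 0.0486). No array overlapped, and this was the 1 member of 7 that passed, where 11.5% of all genes passed and 6.27% as higher. Slc12a1 lay above the 40th percentile in 3 of 4 C57BL/6 medulla arrays. The call rests near the threshold. It was lost without C57BL/6 medulla replicate 3 (3.16, adjusted p = 0.141) or 4 (2.61, adjusted p = 0.188), and without host medulla replicate 1 (3.74, adjusted p = 0.0978), 2 (3.67, adjusted p = 0.1204) or 3 (3.60, adjusted p = 0.122). It was also lost with no filter on dim genes (adjusted p = 0.0635) and in a fit of these groups alone (adjusted p = 0.163). Umod averaged 13.51 ± 0.10 in host medulla and 10.80 ± 2.30 in C57BL/6 medulla, without overlap and without passing (2.71 ± 1.16, adjusted p = 0.156). The other 5 members differed by between -0.05 and 0.53 (adjusted p of at least 0.753).

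Dendritic cells sorted from the cortex of healthy BALB/c and C57BL/6 kidneys differed in signal of the calbindin genes. S100g averaged 9.89 ± 1.31 in BALB/c cortex and 11.94 ± 0.47 in C57BL/6 cortex (-2.05 ± 0.43, 4.14-fold lower, adjusted p = 0.00630). Calb1 averaged 8.24 ± 1.97 in BALB/c cortex and 11.00 ± 0.32 in C57BL/6 cortex (-2.76 ± 0.62, 6.77-fold lower, adjusted p = 0.00828). Calb1 lay above the 40th percentile in 2 of 4 BALB/c cortex arrays, so its fold rests partly on dim values. In both genes 3 of the 4 BALB/c arrays lay below every C57BL/6 array, and 1 BALB/c array, replicate 1 for S100g and replicate 3 for Calb1, lay within the C57BL/6 range. These 2 of 7 passed, where 9.91% of all genes passed and 1.94% passed as lower, and neither passed in a fit of these groups alone (adjusted p = 0.0788 for S100g and 0.08715 for Calb1). Slc12a1 (-2.61 ± 1.11, adjusted p = 0.136) and Umod (-2.06 ± 1.07, adjusted p = 0.230) did not pass, nor did Trpv5, Slc12a3 and Pvalb, with differences between -0.13 and 0.80. In medulla none of the 7 passed in limma, where 9.11% of all genes passed and 4469 had an unadjusted p under 0.05. Slc12a1 had the widest difference there, 2.21 ± 1.11 (adjusted p = 0.175), and 2.80 without BALB/c medulla replicate 1 (adjusted p = 0.1895). The comparison of strains in cortex and that of donor with BALB/c cortex share the 4 BALB/c cortex arrays. The mean of 13 proximal tubule genes was 9.14 ± 0.86 in BALB/c cortex and 10.32 ± 0.76 in C57BL/6 cortex. That of 12 epithelium-wide genes was 7.98 ± 0.25 and 8.15 ± 0.18. The part of tubule transcripts in the strain differences was not tested.

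Donor and host cells, sorted from the same grafts, did not pass for any member in limma. In cortex 0.495% of all genes passed and 801 had an unadjusted p under 0.05, and in medulla 0.592% passed and 876 had an unadjusted p under 0.05. The 95% interval of the donor minus host difference in S100g ran from -1.28 to 0.80 in cortex and from -0.43 to 1.65 in medulla. For Trpv5 it ran from -1.21 to 0.71 in cortex. For Slc12a1 the interval was wide, from -2.39 to 2.91 in cortex and from -2.92 to 2.38 in medulla. These intervals do not show that donor and host arrays carried equal levels. Calb1 had the widest difference in cortex (-1.15 ± 0.71), with donor cortex replicate 1 at 9.41 below all other graft cortex arrays, and Slc12a3 the widest in medulla (0.81 ± 0.66), with donor medulla replicate 3 at 10.41 above the rest.

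**Figure D3:**
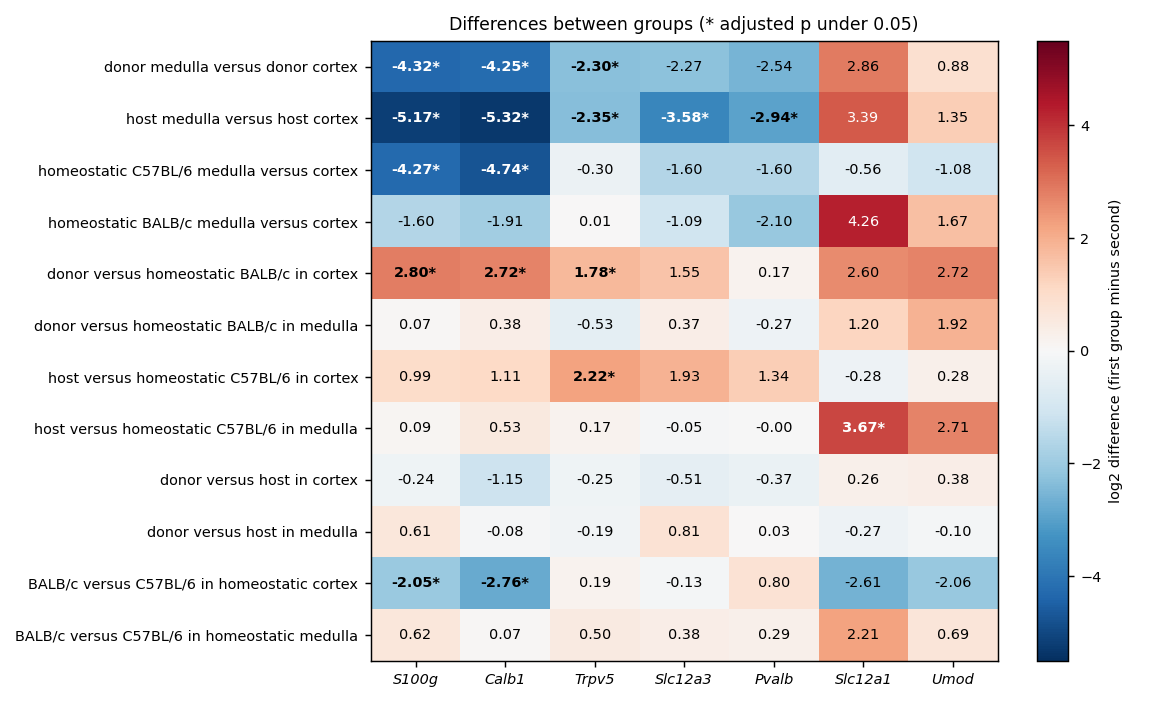
Log2 difference (colour and printed value, first group minus second) of each gene in the 12 comparisons of groups; bold values with an asterisk had an adjusted p under 0.05. The regional differences of S100g and Calb1 in donor, host and C57BL/6 cells run from -4.25 to -5.32.

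Whether the regional difference itself differed between kinds of cells was tested as a difference of differences, and no member passed in any of 4 such tests in limma. The share of all genes that passed was 0.453% for donor minus BALB/c, 0.899% for host minus C57BL/6, 0.0418% for BALB/c minus C57BL/6 and 0.0767% for donor minus host. The counts of genes with an unadjusted p under 0.05 were 1242, 1188, 613 and 678 in the same order. S100g had a regional difference that was wider toward cortex in donor than in BALB/c cells, by -2.73 ± 0.66, and did not pass (adjusted p = 0.0712). It passed with the mouse as a random block (adjusted p = 0.0379), without BALB/c cortex replicate 1 (-3.35, adjusted p = 0.000515) and without BALB/c medulla replicate 3 (-2.97, adjusted p = 0.0481). Calb1 (-2.34 ± 0.94, adjusted p = 0.456) passed without BALB/c cortex replicate 3 (-3.27, adjusted p = 0.01395). Trpv5 (-2.31 ± 0.61, adjusted p = 0.123) passed without donor cortex replicate 1 (-2.78, adjusted p = 0.0408) and in a fit of these groups alone (adjusted p = 0.0343).

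For host minus C57BL/6 cells, Trpv5 had a difference of differences of -2.05 ± 0.61 (adjusted p = 0.159). It passed without C57BL/6 cortex replicate 3 (-2.45, adjusted p = 0.0389), without host cortex replicate 3 (-2.72, adjusted p = 0.00813) and with arrays weighted by quality (-2.55, adjusted p = 0.0201). Slc12a3 (-1.99 ± 0.88, adjusted p = 0.514) passed in a fit of these groups alone (adjusted p = 0.00344). Slc12a1 had the value farthest from 0, 3.95 ± 1.69 (adjusted p = 0.483), and Umod 2.43 ± 1.64 (adjusted p = 0.8315). For BALB/c minus C57BL/6 cells, S100g (2.68 ± 0.61, adjusted p = 0.3065) passed without BALB/c cortex replicate 1 (3.30, adjusted p = 0.00141), and Calb1 (2.83 ± 0.87, adjusted p = 0.7865) passed without BALB/c cortex replicate 3 (3.76, adjusted p = 0.0243). Slc12a1 differed by 4.82 ± 1.57 (adjusted p = 0.883), and by 5.42 without BALB/c medulla replicate 1 (adjusted p = 0.4855).

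Slc12a1 and Umod varied together over the arrays. Their Pearson correlation was 0.83 over the 28 arrays and 0.833 for the deviations from the group means, a description over arrays that share groups and mice. S100g and Calb1 had 0.913 over the 28 arrays and 0.14 for the deviations, so that their likeness lay between groups. Calb1 had 0.594 with Slc12a3 and 0.609 with Pvalb in the deviations.

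**Figure D4:**
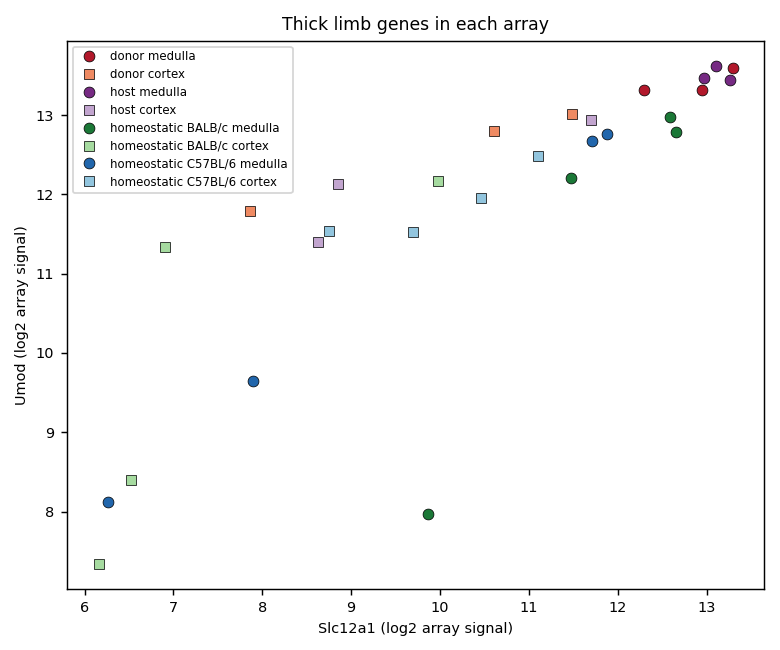
Umod against Slc12a1 (log2 array signal) in each of the 28 arrays, circles for medulla and squares for cortex, coloured by group. The 6 graft medulla arrays lie together at the top right, and homeostatic BALB/c medulla replicate 1, with Umod at 7.97 and Slc12a1 at 9.87, lies below the other arrays of similar Slc12a1 level.

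Other genes of the same segments were read from lists chosen by function, with earlier results of these data known. The lists share some members, and their counts are descriptions and not separate support. Of 20 thick limb genes listed, 16 were tested. In host medulla 6 of the 16 rose relative to host cortex and none fell, where 267 of all 14346 genes tested passed as higher. The median difference of the list was 1.28 beside 0.10 for all genes. The 6 include Tmem207 (5.39 ± 0.93, adjusted p = 0.000752), Cldn19 (1.83 ± 0.32, adjusted p = 0.000980) and Tmem72 (1.67 ± 0.32, adjusted p = 0.00210). Tmem207 averaged 6.57 ± 0.15 in host cortex, below the lowest 40th percentile of an array, 7.26, so its difference rests partly on dim values. Cldn19 encodes a claudin of the tight junction that passes magnesium and calcium. In donor medulla 1 of 16 rose, Ppp1r1a (2.66 ± 0.70, adjusted p = 0.04025), where 90 of all 14346 genes passed as higher. The list median there was 0.70 beside 0.11 for all genes. No thick limb gene passed between regions in either homeostatic strain in limma. Host medulla against homeostatic C57BL/6 medulla had 10 of 16 higher and none lower, where 6.27% of all genes passed as higher. The 10 include Tmem72, Mfsd4a (2.22 ± 0.34) and Cldn19 (1.91 ± 0.30). The list median in that comparison was 2.31 beside 0.07 for all genes.

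Of 8 tested genes of hormones that set calcium and magnesium handling, 3 were lower in donor medulla, where 1.92% of all genes passed as lower. In host medulla 3 of 8 were lower, where 2.43% of all genes passed as lower, and none was higher in either. In both, those that passed were Kl, which encodes the FGF23 co-receptor klotho, Vdr, the vitamin D receptor, and Pth1r, the receptor of parathyroid hormone. Kl differed by -2.68 ± 0.33 in donor cells (adjusted p = 2.60e-05), -2.08 ± 0.33 in host cells (adjusted p = 0.000381) and -1.64 ± 0.29 in homeostatic C57BL/6 cells (adjusted p = 0.0148). Vdr differed by -2.34 ± 0.40 in donor and -2.40 ± 0.40 in host cells, and Pth1r by -2.22 ± 0.54 and -2.02 ± 0.54. Vdr averaged 7.03 ± 0.01 in donor medulla and 7.29 ± 0.18 in host medulla. The 40th percentiles of the arrays ran from 7.26 to 7.62, so the Vdr differences rest partly on dim values. In donor cortex against BALB/c cortex 5 of the 8 rose, among them Kl (3.10 ± 0.31, adjusted p = 2.16e-06), and the median was 0.93 beside -0.13 for all genes. There 7.91% of all genes passed as higher. In host cortex against C57BL/6 cortex 3 of 8 rose, Kl (1.69 ± 0.31), Vdr (1.65 ± 0.38) and Egfr (0.80 ± 0.22). Of all genes 2.01% passed as higher in that comparison. The regional difference of Kl was wider toward cortex in donor than in BALB/c cells (-2.48 ± 0.44, adjusted p = 0.00686), a test of the difference itself. By the same kind of test, Cldn19 (1.99 ± 0.43, adjusted p = 0.0208), Tmem72 (1.75 ± 0.42, adjusted p = 0.0453) and Tfap2b (2.97 ± 0.61, adjusted p = 0.0164) had a regional difference wider toward medulla in host than in homeostatic C57BL/6 cells. Tfap2b averaged 7.05 ± 0.17 in homeostatic C57BL/6 medulla, below the lowest 40th percentile of an array.

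Of 13 distal convoluted tubule genes, 1 rose in host medulla relative to cortex, Tfap2b (2.22 ± 0.46, adjusted p = 0.00442), a transcription factor gene, and none passed in donor, BALB/c or C57BL/6 cells in limma. Between regions 4.29% of all genes passed in host cells and 2.54% in donor cells. In donor cortex against BALB/c cortex 5 of the 13 rose, where 7.91% of all genes passed as higher. The 5 were led by Kcnj16 (2.85 ± 0.56, adjusted p = 0.00158), which encodes a basolateral potassium channel subunit. Of 9 connecting tubule and calcium transport genes, Slc8a1, which encodes the sodium-calcium exchanger that lets calcium out of the cell, fell in host medulla (-2.03 ± 0.41, adjusted p = 0.00340). Scnn1a, a subunit of the epithelial sodium channel, rose in donor cortex against BALB/c cortex (3.83 ± 0.58, adjusted p = 0.000209). Tmem213 of the same list rose there too (0.85 ± 0.31, adjusted p = 0.0469). Scnn1a averaged 6.81 ± 0.30 in BALB/c cortex, below the lowest 40th percentile of an array, 7.26, so its difference rests partly on dim values. Atp2b1 of that list was lower in host cortex than in C57BL/6 cortex (-1.17 ± 0.27, adjusted p = 0.0112). Of 12 genes of the WNK kinase pathway, which regulates both sodium chloride cotransporters, Wnk1 fell in medulla in donor cells (-1.01 ± 0.27, adjusted p = 0.0434) and in host cells (-0.94 ± 0.27, adjusted p = 0.0474). Stk39, which encodes the kinase that phosphorylates these cotransporters, was higher in host medulla than in C57BL/6 medulla (3.50 ± 0.77, adjusted p = 0.00297), as was Wnk4 (1.94 ± 0.41, adjusted p = 0.00239), whereas Wnk1 was lower there (-1.04 ± 0.25, adjusted p = 0.00678). In that comparison 3 of the 12 were higher and 1 was lower, where 11.5% of all genes passed and 6.27% as higher.

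Markers of other nephron segments differed between regions in both directions. Of 13 proximal tubule genes, 12 were lower in donor medulla than in donor cortex, 12 in host medulla, 5 in homeostatic C57BL/6 medulla and 0 in homeostatic BALB/c medulla (limma, adjusted p under 0.05). The mean of these genes ranged over arrays from 7.21 to 7.58 in donor medulla against 11.18 to 12.00 in donor cortex, and from 6.95 to 7.54 in host medulla against 10.88 to 12.08 in host cortex. It ranged from 7.51 to 8.59 in C57BL/6 medulla against 9.51 to 11.34 in C57BL/6 cortex, and from 7.70 to 8.31 in BALB/c medulla against 8.24 to 10.17 in BALB/c cortex. Of 8 intercalated cell genes, 3 were lower in donor medulla, 2 in host medulla, 1 in C57BL/6 medulla and 0 in BALB/c medulla. Thin limb genes ran the other way: 2 of 4 were higher in donor medulla, 3 of 4 in host medulla and none in either homeostatic strain. The mean of the 5 thin limb genes measured was 10.11 ± 0.64 in donor medulla against 8.09 ± 0.11 in donor cortex, and 9.51 ± 0.17 in host medulla against 8.17 ± 0.40 in host cortex. Of 7 principal cell genes of the collecting duct, 1 was higher in donor medulla and 1 in host medulla. Between regions 2.54% of all genes passed in donor cells, 4.29% in host cells, 0.153% in C57BL/6 cells and 0.0697% in BALB/c cells. In donor cortex 8 of the 13 proximal tubule genes, 5 of the 8 intercalated cell genes and 5 of 12 epithelium-wide genes were higher than in BALB/c cortex, where 7.91% of all genes passed as higher. In host cortex 2 of the 13, 3 of the 8 and 4 of the 12 were higher than in C57BL/6 cortex, where 2.01% of all genes passed as higher. In BALB/c cortex 4 of the 13 proximal tubule genes were lower than in C57BL/6 cortex, where 1.94% of all genes passed as lower. The part of transcripts of other segments in the differences of the 7 genes was not tested.

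Between host and homeostatic C57BL/6 medulla, markers of thin limb, epithelium and leukocytes differed together with Slc12a1. All 12 epithelium-wide genes tested were higher in host than in homeostatic C57BL/6 medulla, and 14 of 16 leukocyte-wide genes and 7 of 7 dendritic cell and sort markers tested were lower, where 11.5% of all genes passed. All 4 thin limb genes and 4 of 7 principal cell genes were higher there too, and the thin limb mean was 9.51 ± 0.17 in host medulla and 7.66 ± 0.23 in C57BL/6 medulla. Between regions, 3 of the 12 epithelium-wide genes were higher in donor medulla and 6 of 12 in host medulla, and of the 16 leukocyte-wide genes 5 were lower and 1 higher in host medulla. The leukocyte-wide mean ranged from 8.11 to 9.35 in host medulla and from 11.58 to 11.68 in C57BL/6 medulla. In the 4 C57BL/6 medulla arrays, in replicate order, the mean of the thick limb list was 8.73, 8.72, 7.56 and 7.50, low in the arrays where Slc12a1 and Umod were low, while the leukocyte-wide mean, at 11.68, 11.60, 11.58 and 11.65, did not follow that order. Macrophage genes stood at 8.03 ± 0.22 in host medulla, 11.40 ± 0.86 in donor medulla and 12.29 ± 0.06 in C57BL/6 medulla. They stood at 7.93 ± 0.33 in host cortex and 12.16 ± 0.06 in C57BL/6 cortex, so their low level was not particular to host medulla. The part of these shifts in the difference of Slc12a1 was not tested.

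**Figure D5:**
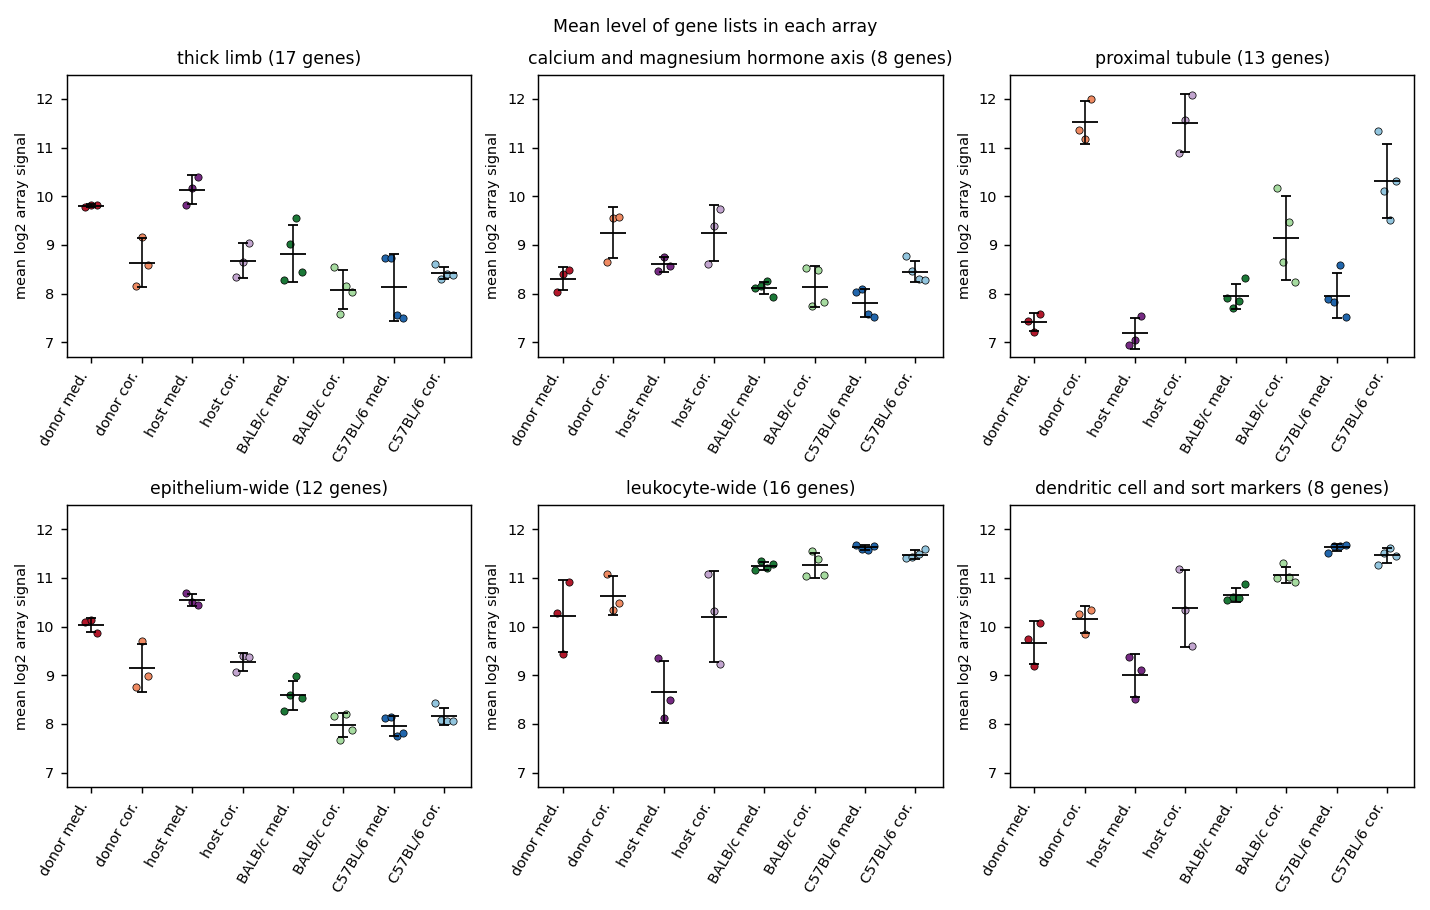
Mean level of 6 gene lists in every array (points, mean log2 array signal), with the mean and SD of each group (bars; n = 3 or 4). The proximal tubule list is low in every medulla group and highest in graft cortex, and the leukocyte-wide list is lowest in host medulla, at 8.11 to 9.35.

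The genes whose levels were most like those of each member over the 28 arrays were named by their Pearson correlation. For S100g they were Acsm2 (0.934), Lrp2 (0.931), the endocytic receptor megalin of the proximal tubule, and Cyp2e1 (0.928). Acsm2 averaged 6.62 ± 0.15 in donor medulla and 11.99 ± 0.49 in donor cortex. Calb1 was most like S100g (0.913), Acsm2 (0.903) and Slc17a1 (0.887). Trpv5 was most like Havcr1 (0.902), which encodes kidney injury molecule, Ubd (0.884), a ubiquitin-like protein gene, and Fyb2 (0.876). Havcr1 averaged 8.97 ± 0.57 in donor cortex and 9.54 ± 1.95 in host cortex, against 6.51 ± 0.29 in BALB/c cortex and 6.28 ± 0.21 in C57BL/6 cortex. Slc12a3 was most like Tmem52b (0.919), Nat8 (0.85) and Calb1 (0.842), and Pvalb most like Pgam2 (0.869), Sfrp1 (0.851) and Cavin2 (0.839). Slc12a1 was most like Ptger3 (0.878), a prostaglandin receptor gene, Umod (0.83) and Wfdc15b (0.827), and Umod most like Nudt4 (0.923), Atp1b1 (0.886), a subunit of the sodium pump, and Kng2 (0.881).

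Ordered by group mean, S100g, Calb1, Trpv5, Slc12a3 and Pvalb were all highest in host cortex. For S100g host cortex was followed by donor, C57BL/6 and BALB/c cortex, then donor, BALB/c, host and C57BL/6 medulla, and the array ranges of every pair of neighbours overlapped. For Calb1 host cortex stood clear of the next group, C57BL/6 cortex, and every later pair of neighbours overlapped. For Trpv5 a gap lay between donor cortex, at 9.70, and the next group, BALB/c medulla, at 7.93, and the 6 groups below overlapped from each to the next. Slc12a3 had gaps below donor cortex and between BALB/c and C57BL/6 medulla. Pvalb had gaps below C57BL/6 cortex and below BALB/c medulla. Slc12a1 ran from host medulla, donor medulla and BALB/c medulla through C57BL/6, donor and host cortex to C57BL/6 medulla and BALB/c cortex, with every pair of neighbours overlapping. Umod was highest in host and donor medulla, which stood clear of donor cortex, and lowest in BALB/c cortex, at 9.81 ± 2.31.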

How the data were processed

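RNA of sorted renal dendritic cells was measured on 28 arrays. Per the submitters' processing notes, the authors made the deposited log2 values by RMA with the oligo package, and no version is given in the sources used here. No further normalization was applied, and the number of arrays limits the precision. Of 22549 probesets, 20646 had a single gene symbol and were used, while 551 with several symbols and 1352 without a listed one were left out. Each gene was read from its brightest probeset, by the mean over all arrays. Genes had to exceed the 40th percentile on 3 or more arrays.

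All comparisons came from a fit in limma 3.58.1 (R 4.3.3) with a mean for each of the 8 groups and 20 residual degrees of freedom. Tests were 2-sided, and p-values were adjusted by Benjamini-Hochberg over 14346 genes within a comparison. Mouse numbers in the labels mark regions, and donor and host cells, of the same animal or graft (11 in all). Deviations from the group means of same-numbered arrays correlated at a mean of 0.155 between donor regions, 0.106 between host regions, 0.22 between the cells of graft cortex and 0.171 between those of graft medulla. In homeostatic kidneys the mean was -0.00326 for C57BL/6 and -0.00611 for BALB/c. Fits with mouse as a random or a fixed block were therefore run beside the unblocked fit. Further alternatives were no filter, a strict filter, quantile normalization applied again, a robust trend of the variance, only the groups compared, the mean of all probesets of a gene, each array left out in turn, and array weights (chosen after seeing the data). The method was tested on simulated data.

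All 7 members are named in the main comparisons. Up to 3 genes of a related list that passed, by smallest adjusted p, the first 3 of a marker list, and the 3 genes most correlated with each member (predicted genes left out) could be named. The members and lists were chosen with earlier results of these data known. That the replicates came from separate mice is taken from the labels. Promoter sequences and coordinates are from RefSeq on GRCm38.p6.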

Additional observations from a re-analysis of the deposited data

Results flagged for a closer look

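Within groups of 4 arrays, 2 of the 28 gene and group combinations of the homeostatic kidneys had a single array far from the other 3, by a ratio of its gap to the range of the group above Dixon's critical value for 4 samples. Chance sets about 1 in 20 groups apart in this way. Trpv5 measured 8.94 in homeostatic C57BL/6 cortex replicate 3, a ratio of 0.864, against 7.22 to 7.45 in the other 3 arrays. Umod measured 7.97 in homeostatic BALB/c medulla replicate 1, a ratio of 0.846, against 12.20 to 12.97 in the other 3. The second array is also the one that correlated least with its group over all genes.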

How the results depend on the processing

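The counts of the 7 genes that passed moved with the treatment of the mouse. With the mouse as a random replicate block, 5 passed between donor medulla and donor cortex in place of 3, and 1 passed in the donor minus BALB/c difference of regional differences in place of 0. With the mouse as a fixed replicate block, 1 passed between donor regions, 3 in place of 5 between host regions, and 1 in place of 2 between C57BL/6 regions; the pairing changed no other call of a member. In fits of only the groups compared, 1 passed in donor against BALB/c cortex, 0 in host against C57BL/6 medulla, 0 in BALB/c against C57BL/6 cortex, 1 in the donor minus BALB/c and 1 in the host minus C57BL/6 difference of regional differences. In those fits Trpv5 also lost its call between donor regions and between host regions, and Slc12a3 gained one between C57BL/6 regions. In host against C57BL/6 cortex Trpv5 lost its call and Slc12a3 gained one. With no filter 0 passed in host against C57BL/6 medulla. With array weights 2 passed in host against C57BL/6 cortex and 1 in the host minus C57BL/6 difference of regional differences. The cause of these shifts was not tested. Leaving out each array in turn gave counts of 3 to 5 (donor regions), 4 to 5 (host regions), 2 to 5 (donor against BALB/c cortex), 0 to 1 (host against C57BL/6 medulla) and 0 to 1 in the differences of regional differences for donor minus BALB/c, host minus C57BL/6 and BALB/c minus C57BL/6.

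Among the alternatives other than leaving out an array, only the second quantile normalization and the array weights could change a difference itself. The others refit the same values, with 1 probeset for each member, so that only the p could move and the direction was fixed in advance. Among single genes, 912 of the differences kept their direction and their side of the threshold under all these alternatives, and 11 gained and 14 lost a call. A further 8 changed sign, none of them a call. With a second quantile normalization these were -0.014 for Trpv5 between BALB/c regions, -0.15 for Pvalb in donor against BALB/c cortex, 0.11 for Slc12a3 and -0.16 for Calb1 between BALB/c and C57BL/6 cells in cortex and in medulla, and 0.012 for Pvalb in the donor minus BALB/c difference of regional differences. With array weights they were -0.052 for Trpv5 between BALB/c regions, -0.19 for Pvalb in donor against BALB/c cortex and -0.0091 for S100g in host against C57BL/6 medulla.

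The following differences, none of them a call, took both signs when arrays were left out, and the cause was not tested. Between regions, Trpv5 ran from -0.095 to 0.097 in BALB/c cells and from -0.47 to 0.10 in C57BL/6 cells, and Slc12a1 from -1.38 to 0.50 in C57BL/6 cells. In donor against BALB/c cells, Pvalb ran from -0.60 to 1.24 in cortex, S100g from -0.17 to 0.34 and Slc12a3 from -0.66 to 0.96 in medulla. In host against C57BL/6 cells, Slc12a1 ran from -1.27 to 0.27 and Umod from -0.11 to 0.66 in cortex, and S100g from -0.15 to 0.27, Slc12a3 from -0.20 to 0.084 and Pvalb from -0.11 to 0.092 in medulla. Between BALB/c and C57BL/6 cells, Slc12a3 ran from -0.73 to 0.27 in cortex and Umod from -0.20 to 1.86 in medulla. In donor against host cortex, Trpv5 ran from -0.92 to 0.31, Slc12a3 from -1.10 to 0.0063, Pvalb from -0.98 to 0.69, Slc12a1 from -0.49 to 1.32 and Umod from -0.0050 to 0.77. In donor against host medulla, Calb1 ran from -0.29 to 0.22, Slc12a3 from -0.22 to 1.40, Pvalb from -0.066 to 0.13 and Slc12a1 from -0.49 to 0.0092. In the differences of regional differences, donor minus BALB/c ran from -1.503 to 0.34 for Pvalb and from -1.97 to 0.028 for Umod, BALB/c minus C57BL/6 from -0.093 to 0.48 for Trpv5, and donor minus host from -0.51 to 0.73 for Trpv5, -0.66 to 1.01 for Pvalb and -1.59 to 0.22 for Slc12a1.

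The counts over all genes moved too: 3449 genes passed in donor against BALB/c cortex, 6427 with no filter and 1653 with the strict one, and 365 between donor regions, 237 with the strict filter and 69 with the fixed block. The spread of Slc12a1 and Umod, shared by all 8 groups in the fit, gave standard errors above 1 log2 unit at 3 or 4 arrays. This limits what these comparisons can show. Within the graft groups the SD of Umod was at most 0.77.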
